A study of Mus musculus with 6 samples.

Results

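The troponin and tropomyosin genes described here are *Tnnt1*, *Tnnt2*, *Tnnt3*, *Tnni1*, *Tnni2*, *Tnnc1*, *Tnnc2*, *Tpm1*, *Tpm2*, and *Tpm3*, taken by gene name from the 55421 genes of the deposited tables and joined to the counts by gene identifier. All 10 were found and all 10 passed the filter on low counts. The RNA came from C2C12 cells, a mouse myoblast line that fuses into myotubes, at differentiation day 4. The normal group (C2C12-CUG5) carried a *GFP* plasmid with 5 CTG repeats, and the myotonic dystrophy type 1 (DM1) group (C2C12-CUG200) carried a *GFP* plasmid with 200 CTG repeats. Both groups therefore carried a stable *GFP* transgene selected with G418, and both were differentiated in low-serum medium with insulin. Each group had 3 libraries. They are called biological replicates, but the methods do not say whether they came from separate transfections or clones, so p-values measure only the spread between these samples.

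Striated muscle contracts when calcium binds to troponin on the thin filament. Troponin C binds the calcium, troponin I inhibits the interaction of actin with myosin, and troponin T ties the complex to tropomyosin, the coiled coil that lies along actin. Fast, slow, and cardiac forms of these proteins are encoded by separate genes, and developing skeletal muscle expresses forms of more than a single type at once.

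At day 4 some slow and some fast genes fell in the DM1 group. The slow genes *Tnnt1* and *Tnni1*, the fast genes *Tnnt3* and *Tnnc2*, and the tropomyosin gene *Tpm2* fell, by between 22.7% and 32.0%. *Tnnt2*, *Tnni2*, *Tnnc1*, *Tpm1*, and *Tpm3* did not pass the test. With the quasi-likelihood test of edgeR, adjusted by Benjamini-Hochberg over 19005 genes, 5 of 10 members were lower at an adjusted p under 0.05, where 8.73% of all genes tested were lower. None of the 10 was higher, at the adjusted threshold or at an unadjusted p under 0.05. With 7.13% of all genes called higher, 0 of 10 members lies near that share. DESeq2 also gave 5 lower and 0 higher. The lower members numbered 1 without normal library 1 or 3 and 2 without normal library 2 or DM1 library 2. None passed the cutoffs of the study, an absolute log2 fold change over 1 with an adjusted p under 0.05, which 0.816% of all genes tested passed in the lower direction. In 7 of 10 members every DM1 library lay below every normal library, and 19.3% of all genes tested had that pattern. The median log2 fold change of the members was -0.30 and that of all genes tested was 0.02.

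**Figure D1:**
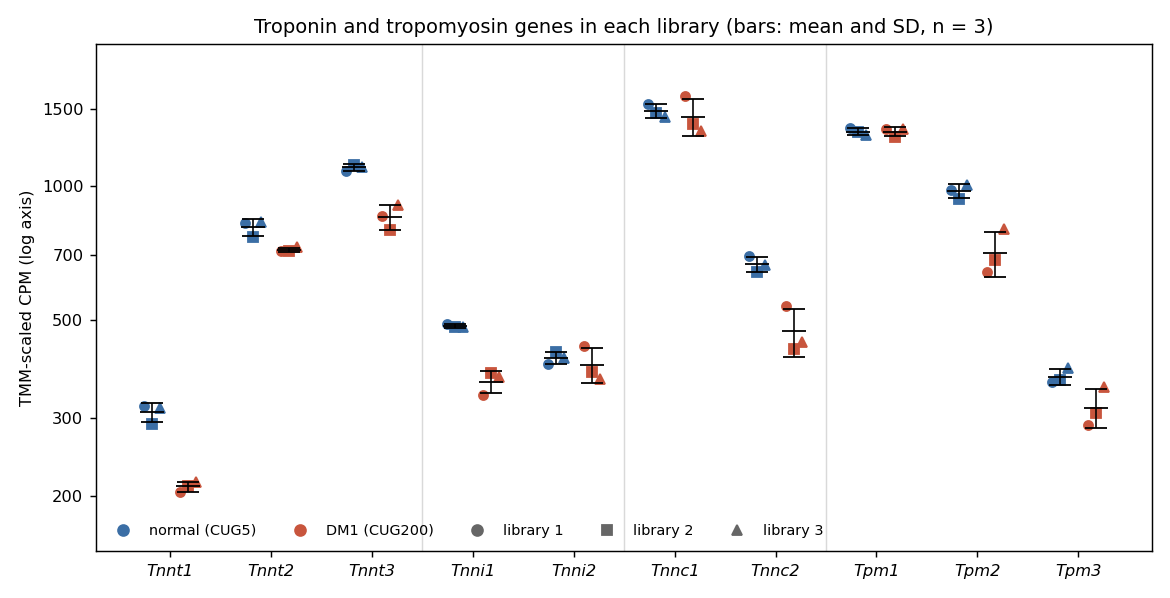
TMM-scaled CPM (counts scaled to library size, log axis) of the 10 genes in each of the 6 libraries, normal in blue and DM1 in red, with a marker shape for each library and bars for the mean and SD. *Tnnt1* runs from 291 to 319 in the normal group and from 204 to 215 in the DM1 group, while the groups overlap for *Tnni2*, *Tnnc1*, and *Tpm1*.

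The libraries held from 61707889 to 80957325 counts, where 1 count stands for 75 aligned bases. The members made up 0.778% to 0.836% of the counts in the normal libraries and 0.651% to 0.718% in the DM1 libraries. Mitochondrial genes made up 9.04%, 12.3%, and 12.6% in normal libraries 1, 2, and 3 and 13.5%, 13.4%, and 8.90% in DM1 libraries 1, 2, and 3, and their part in the results was not tested. With library sizes taken without the mitochondrial genes, an alternative chosen after seeing the data, 5 members were again lower. In bulk RNA, fewer cells that express a gene and less RNA of it per cell cannot be told apart.

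Levels of different genes were compared in TPM, which corrects for transcript length as well as library size. In TPM, *Tnnc1* was the most abundant member in all 6 libraries, with 3477 ± 322 (SD, n = 3) in the normal group and 3084 ± 151 in the DM1 group. *Tpm3* was the least abundant in all 6, with 328 ± 15.4 and 259 ± 50.6 TPM. In the normal group the order was *Tnnc1*, *Tnnt3*, *Tnnc2*, *Tpm1*, *Tnnt2*, *Tnni2*, *Tpm2*, *Tnni1*, *Tnnt1*, and *Tpm3*, and the ranges of neighbours overlapped for *Tnnc2* with *Tpm1* and for *Tpm2* with *Tnni1*. In the DM1 group *Tnnc2* stood after *Tpm1*, and the ranges overlapped for *Tnnt3* with *Tpm1*, for *Tnnc2* with *Tnnt2*, and for *Tpm2* with *Tnni1*. In the test on log2(TPM + 1) the median log2 fold change, over genes of the edgeR test, was -0.10, and it was -0.06 without a filter. TPM values of the DM1 group thus sit lower as a whole than TMM-scaled counts do. DM1 library 3 was the highest DM1 library for 10 of 10 members in TPM but for 5 of 10 in TMM-scaled CPM, and for that reason changes of a gene between the groups are given below in TMM-scaled CPM, and TPM is used for levels, shares, and ratios between genes.

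Promoter windows from RefSeq (GRCm38.p6), 250 bases before to 50 bases after the start site, were matched for 8 of 10 members, without *Tnnt3* and *Tnni2*. The windows are shown for *Tnnt1*, which had the lowest log2 fold change, for *Tnnt2*, the cardiac gene, and for *Tnnc1* and *Tnnc2*, which encode the same subunit and whose ratio separated the groups. Capitals mark matches to the E-box (CANNTG, which reads the same on both strands and is bound by MyoD and myogenin) and to the M-CAT motif (CATTCCT, either strand), and no capital run is shared between both motifs. The *Tnnt1* window lies at chr7:4515926-4516225 on the minus strand, *Tnnt2* at chr1:135836084-135836383 on the plus strand, *Tnnc1* at chr14:31208062-31208361 on the plus strand, and *Tnnc2* at chr2:164779685-164779984 on the minus strand.
Tnnt1: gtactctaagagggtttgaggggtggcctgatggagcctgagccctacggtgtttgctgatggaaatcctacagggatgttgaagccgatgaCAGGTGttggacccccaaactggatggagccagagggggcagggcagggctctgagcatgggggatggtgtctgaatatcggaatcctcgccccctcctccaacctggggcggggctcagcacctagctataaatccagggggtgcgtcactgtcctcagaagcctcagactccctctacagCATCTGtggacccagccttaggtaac
Tnnt2: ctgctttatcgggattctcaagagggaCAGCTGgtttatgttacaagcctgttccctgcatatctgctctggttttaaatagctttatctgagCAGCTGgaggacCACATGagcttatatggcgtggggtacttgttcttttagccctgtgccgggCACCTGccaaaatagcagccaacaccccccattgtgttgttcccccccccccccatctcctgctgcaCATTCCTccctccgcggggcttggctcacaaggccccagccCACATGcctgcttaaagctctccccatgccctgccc
Tnnc1: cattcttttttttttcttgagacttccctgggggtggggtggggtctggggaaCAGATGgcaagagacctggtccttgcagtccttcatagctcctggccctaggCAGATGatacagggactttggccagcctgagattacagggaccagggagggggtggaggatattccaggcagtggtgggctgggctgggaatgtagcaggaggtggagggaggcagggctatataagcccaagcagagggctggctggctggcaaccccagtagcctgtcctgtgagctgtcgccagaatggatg
Tnnc2: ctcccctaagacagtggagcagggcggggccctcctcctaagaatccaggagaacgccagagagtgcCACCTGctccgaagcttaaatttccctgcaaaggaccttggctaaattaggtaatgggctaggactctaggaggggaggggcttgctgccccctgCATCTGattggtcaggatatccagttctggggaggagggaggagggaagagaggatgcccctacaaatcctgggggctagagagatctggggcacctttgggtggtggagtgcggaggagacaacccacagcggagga
The *Tnnt2* window shown held 5 E-boxes, at -223, -157, -145, -94, and 15 from the start site, and an M-CAT motif at -27. A second *Tnnt2* window of the table, at chr1:135836739-135837038, held 2 E-boxes and no M-CAT motif, and the window with the motif was the one shown. The windows of *Tnnt1*, *Tnnc1*, and *Tnnc2* held 2 E-boxes each and no M-CAT motif. Over all 11 windows of the members, 11 held an E-box and 2 held an M-CAT motif, the *Tnnt2* window shown and that of *Tpm1*. An E-box was present in 72.3% and an M-CAT motif in 5.36% of the 32851 promoter windows of the table. The MEF2 site and the CArG box, searched on both strands, were found in 0 of the 11 windows and in 3.19% and 1.63% of all windows. *Tnnc2*, which fell, and *Tnnc1*, which did not pass the test, thus held the same number of E-boxes, and these matches are letters in the windows, not measured binding.

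In the troponin T family the slow and the fast gene fell and the cardiac gene did not pass the test. *Tnnt1* (slow skeletal troponin T, ENSMUSG00000064179, chr7:4504570-4516382, minus strand) had 319, 291, and 315 TMM-scaled CPM in normal libraries 1, 2, and 3 and 204, 210.1, and 215 in DM1 libraries 1, 2, and 3. The groups did not overlap, and the highest DM1 library lay well under the lowest normal one. The log2 fold change was -0.56 (SE 0.0798, adjusted p = 0.00410 by edgeR), from 309 ± 15.2 to 209.8 ± 5.48 CPM (SD, n = 3). This was the only member called in all 6 fits that left out 1 library, with adjusted p between 0.00361 and 0.0309.

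*Tnnt3* (fast skeletal troponin T, ENSMUSG00000061723, chr7:142498836-142516009, plus strand) was the most abundant troponin T gene. It had 1084, 1119.9, and 1109 TMM-scaled CPM in normal libraries 1, 2, and 3 and 859, 796, and 907 in the DM1 libraries. No DM1 library reached the normal range, with library 3 the closest to the normal group. The log2 fold change was -0.37 (SE 0.0839, adjusted p = 0.0207 by edgeR), and without normal library 1, 2, or 3 or DM1 library 2 the adjusted p lay between 0.0651 and 0.104. *Tnnt2* (cardiac troponin T, ENSMUSG00000026414, chr1:135836354-135852260, plus strand) is expressed in the heart and in developing skeletal muscle and is known as a splicing target in DM1. It had 827, 769, and 830.5 TMM-scaled CPM in the normal libraries and 715, 714, and 729 in the DM1 libraries. The groups did not overlap here either, but the log2 fold change of -0.17 (95% interval -0.35 to 0.0085) did not pass the test, with an adjusted p of 0.182 by edgeR. These counts are per gene, so the inclusion of exons was not analysed here.

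As shares of the summed TPM of the troponin T genes, *Tnnt2* had 31.8%, 30.7%, and 31.7% in the normal libraries and 35.3%, 35.9%, and 34.6% in the DM1 libraries. *Tnnt1* had 15.6%, 14.8%, and 15.3% in the normal libraries and 12.97%, 13.5%, and 12.98% in the DM1 libraries. From the normal to the DM1 group the share of the cardiac gene thus changed by 3.85 percentage points and that of the slow gene by -2.11 points, with no overlap of the groups. *Tnnt3* kept the largest share, 53.3% ± 0.998 in the normal group and 51.6% ± 0.898 in the DM1 group (SD, n = 3). Its groups did not overlap in TPM, but they did when counts were used in place of TPM. The log2 ratio of the fast *Tnnt3* to the slow *Tnnt1* in TPM was 1.75, 1.88, and 1.79 in the normal libraries and 2.00, 1.91, and 2.01 in the DM1 libraries, without overlap, but its groups also overlapped in counts. In all, 12 shares and ratios of the families were tested, and for the 11 whose groups did not overlap in TPM the exact two-sided permutation test gave p = 0.1, the smallest that 3 libraries against 3 allow, with an adjusted p of 0.109. This test cannot go under 0.05 at that size.

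**Figure D2:**
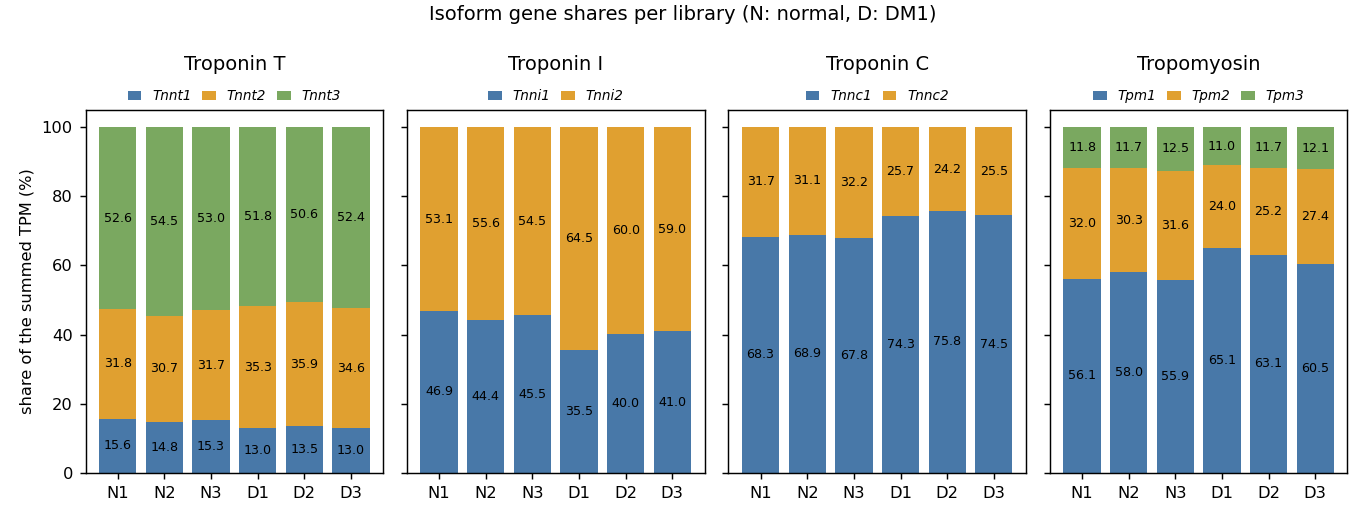
Share of each gene in the summed TPM of its family (%), as stacked bars for normal libraries N1 to N3 and DM1 libraries D1 to D3, with the value printed in each segment. The *Tnni2* share is between 53.1% and 55.6% in the normal libraries and between 59.0% and 64.5% in the DM1 libraries, while the *Tnnc2* share goes from between 31.1% and 32.2% to between 24.2% and 25.7%.

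In the troponin I family the slow gene fell and the fast gene did not pass the test. *Tnni1* (slow skeletal troponin I, ENSMUSG00000026418, chr1:135779434-135810989, plus strand) had 489.98, 480.3, and 480.3 TMM-scaled CPM in normal libraries 1, 2, and 3. It had 338, 379, and 370.02 in DM1 libraries 1, 2, and 3. All DM1 libraries lay below all normal libraries, which differed little among themselves. The log2 fold change was -0.42 (SE 0.0811, adjusted p = 0.0124 by edgeR), and without normal library 1, 2, or 3 the adjusted p lay between 0.0525 and 0.0640. *Tnni2* (fast skeletal troponin I, ENSMUSG00000031097, chr7:142441808-142444410, plus strand) had 397, 422, and 409.9 TMM-scaled CPM in the normal libraries and 437, 381, and 368 in the DM1 libraries. DM1 library 1 was above every normal library and DM1 libraries 2 and 3 were below them, so the groups overlapped. The log2 fold change of *Tnni2* was -0.05 (95% interval -0.26 to 0.16, adjusted p = 0.762 by edgeR), and it was -0.12 without DM1 library 1 and -0.0029 without DM1 library 3.

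The log2 ratio of *Tnni2* to *Tnni1* in TPM was 0.18, 0.33, and 0.26 in the normal libraries and 0.86, 0.58, and 0.53 in the DM1 libraries. In TPM the fast gene therefore took the larger part of troponin I in every library, and more so in every DM1 library. The difference between the group means was 0.40 (exact permutation test, p = 0.1). The *Tnni2* share in TPM went from 54.4% ± 1.24 to 61.2% ± 2.93 (SD, n = 3). In counts it was 44.8%, 46.8%, and 46.0% in the normal libraries and 56.4%, 50.2%, and 49.8% in the DM1 libraries. The groups again did not overlap, but *Tnni1* had the larger part in the normal libraries and in DM1 library 3. *Tnni3*, which encodes cardiac troponin I and completes the family, had between 83 and 214 counts in a library and took between 0.197% and 0.393% of the family with it included. Its log2 fold change was -0.41 with an adjusted p of 0.408 by edgeR, and between -0.67 and -0.12 when 1 library was left out.

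Troponin C went the other way, with the fast gene lower and the slow and cardiac gene not past the test. *Tnnc2* (fast skeletal troponin C, ENSMUSG00000017300, chr2:164777161-164779967, minus strand) had 696, 642, and 663 TMM-scaled CPM in normal libraries 1, 2, and 3 and 537, 430.02, and 444 in the DM1 libraries. All DM1 libraries lay below the normal ones, with library 1 the highest of them. Its log2 fold change was -0.50 (SE 0.104, adjusted p = 0.0146 by edgeR), and without normal library 1 or 3 or DM1 library 2 the adjusted p lay between 0.0625 and 0.0701. Exons of *Tnnc2* overlap those of *Ube2c* on the opposite strand, 35.0% of its 75-base words also occur in *Ube2c*, and the strand setting of the counting is not given in the sources used here, so its count is uncertain. *Ube2c* had between 3857 and 5799 counts in a library and *Tnnc2* between 29516 and 58494.

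*Tnnc1* (troponin C of slow and cardiac muscle, ENSMUSG00000091898, chr14:31208312-31211729, plus strand) had 1539.5, 1464, and 1435 TMM-scaled CPM in the normal libraries and 1598, 1387, and 1333 in the DM1 libraries. DM1 library 1 was the highest of all 6 and DM1 library 3 the lowest. The log2 fold change was -0.04 (95% interval -0.26 to 0.18, adjusted p = 0.830 by edgeR), and it was 0.011 without DM1 library 3. The log2 ratio of *Tnnc2* to *Tnnc1* in TPM was -1.11, -1.15, and -1.07 in the normal libraries and -1.53, -1.65, and -1.55 in the DM1 libraries. The groups did not overlap, and the difference between their means was -0.46 (exact permutation test, p = 0.1). The share of *Tnnc2* went from 31.6% ± 0.572 to 25.1% ± 0.811 (SD, n = 3). In the DM1 group the fast share was thus larger for troponin I and smaller for troponin C, and in both families the gene that fell lost about the same number of points, 6.75 for *Tnni1* and 6.52 for *Tnnc2*.

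**Figure D3:**
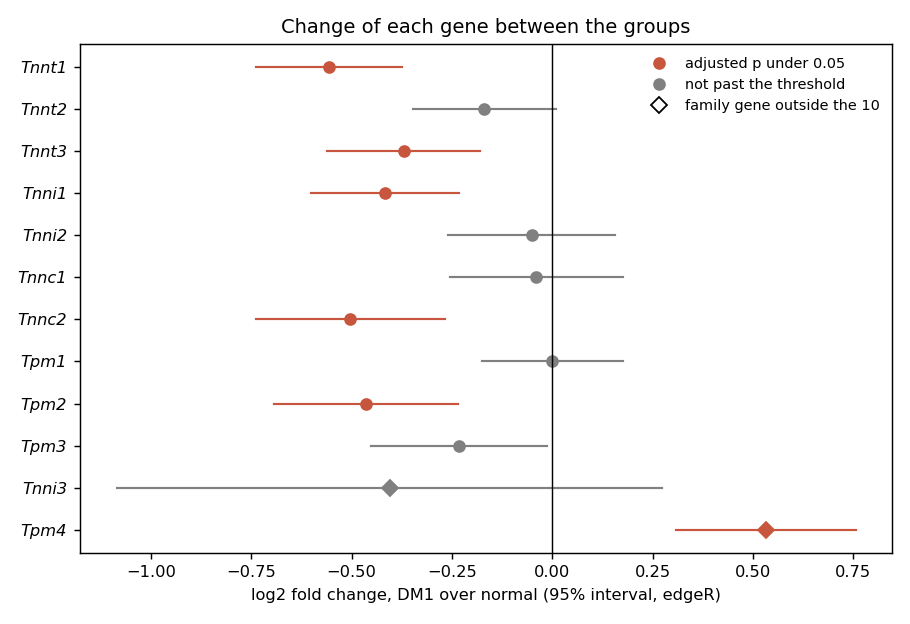
Log2 fold change, DM1 over normal, of each member and of *Tnni3* and *Tpm4*, which complete the families (edgeR; bars are 95% intervals, red marks an adjusted p under 0.05). *Tnnt1*, *Tnnt3*, *Tnni1*, *Tnnc2*, and *Tpm2* lie between -0.56 and -0.37, *Tpm1* lies at -0.00024, and *Tpm4* lies at 0.53.

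Among the tropomyosin genes *Tpm2* fell, and *Tpm1* and *Tpm3* did not pass the test. *Tpm2* (beta-tropomyosin, ENSMUSG00000028464, chr4:43514711-43523765, minus strand), which is found in slow and fast fibers, had 981, 939, and 1008 TMM-scaled CPM in normal libraries 1, 2, and 3. It had 642, 681, and 799.8 in the DM1 libraries. Each DM1 library was below each normal one, with library 3 the closest. This gave a log2 fold change of -0.46 (SE 0.101, adjusted p = 0.0177 by edgeR), and without normal library 1, 2, or 3 or DM1 library 2 the adjusted p lay between 0.0563 and 0.0909. *Tpm1* (alpha-tropomyosin of fast and cardiac muscle, ENSMUSG00000032366, chr9:67022590-67049406, minus strand) had 1355, 1327, and 1307 TMM-scaled CPM in the normal libraries and 1348, 1294, and 1346 in the DM1 libraries. The groups overlapped, with means of 1329.6 ± 24.0 and 1329.4 ± 30.6 (SD, n = 3). Its log2 fold change was -0.00024 (95% interval -0.18 to 0.18, adjusted p = 0.999 by edgeR).

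*Tpm3* (slow alpha-tropomyosin, ENSMUSG00000027940, chr3:90072649-90100902, plus strand) had 361, 364, and 389 TMM-scaled CPM in normal libraries 1, 2, and 3 and 288, 308, and 352 in DM1 libraries 1, 2, and 3. The groups did not overlap, but the log2 fold change of -0.23 (95% interval -0.45 to -0.014 before adjustment) had an adjusted p of 0.140 by edgeR. Without DM1 library 3 it was -0.32 with an adjusted p of 0.0271. *Tpm3* shares 19.1% of its 75-base words with other genes, most of all the copy *Tpm3-rs7*, so its count is uncertain, whereas the members other than *Tpm3* and *Tnnc2* shared 0 such words with another gene.

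As shares of the 3 tropomyosin genes in TPM, *Tpm1* had 56.1%, 58.0%, and 55.9% in the normal libraries and 65.1%, 63.1%, and 60.5% in the DM1 libraries. *Tpm2* had 32.0%, 30.3%, and 31.6% in the normal libraries and 24.0%, 25.2%, and 27.4% in the DM1 libraries. Both shares separated the groups without overlap, and the *Tpm3* share, 12.03% ± 0.439 against 11.6% ± 0.562 (SD, n = 3), did not (exact permutation test, p = 0.4). The log2 ratio of *Tpm1* to *Tpm3* in TPM was 2.24 ± 0.0757 in the normal group and 2.44 ± 0.122 in the DM1 group, without overlap. Both genes also encode tropomyosins of the cytoskeleton, and the values per gene do not separate these from the fast and slow muscle forms.

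*Tpm4*, the tropomyosin gene outside the 10, encodes a form found mainly in the cytoskeleton and rose. It had 1079.5, 1049.8, and 1030.3 TMM-scaled CPM in the normal libraries and 1712, 1468, and 1389 in the DM1 libraries, all DM1 libraries above all normal ones. Its log2 fold change was 0.53 (SE 0.0984, adjusted p = 0.0102 by edgeR), and the adjusted p was 0.0504 without normal library 2 and 0.0566 without normal library 3. With *Tpm4* counted in the family its share went from 23.1% ± 0.509 to 32.9% ± 3.24 (SD, n = 3). On that basis the *Tpm1* share was no longer larger in the DM1 group, with 42.2% ± 0.586 against 43.6% ± 0.8998, a change of -1.40 points, and the *Tpm3* share changed by -1.48 points.

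The genes also differed in how their libraries ranked inside the DM1 group. In TMM-scaled CPM, DM1 library 1 was the highest DM1 library for 4 of 10 members, *Tnni2*, *Tnnc1*, *Tnnc2*, and *Tpm1*, library 3 for 5, and library 2 for 1. Troponin I and troponin T genes lie in linked pairs in the genome, *Tnni1* 25364 bases from *Tnnt2* on chromosome 1, *Tnni2* 54425 bases from *Tnnt3* on chromosome 7, and *Tnni3* 1922 bases from *Tnnt1* on chromosome 7. In the first pair *Tnni1* fell and *Tnnt2* did not pass the test, and in the second *Tnnt3* fell and *Tnni2* did not pass the test.

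For each member the gene most like it was taken from 9651 genes with a mean of at least 10 CPM, by Pearson correlation of log2 CPM over the 6 libraries. These genes were *Ercc4* for *Tnnt1* (r = 0.9998), *Slc27a4* for *Tnnt2* (r = 0.994), *Gxylt2* for *Tnnt3* (r = 0.9999), and *Hjv* for *Tnni1* (r = 0.997). They were *Sumo3* for *Tnni2* (r = 0.987), *Strap* for *Tnnc1* (r = 0.989), *Ermp1* for *Tnnc2* (r = 0.998), *Tti2* for *Tpm1* (r = 0.995), *Ano6* for *Tpm2* (r = 0.999), and *Ogdh* for *Tpm3* (r = 0.998). With 6 points in 2 groups, many genes reached r over 0.95 for some members and few for others. How often such values arise without a relation was not tested. The number of genes with r over 0.95 was 753 for *Tpm2* and 709 for *Tnnt1*, and it was 11 for *Tpm1*, 19 for *Tnni2*, and 34 for *Tnnc1*, whose groups overlapped. *Hjv*, which encodes the bone morphogenetic protein co-receptor hemojuvelin, had a log2 fold change of -0.94 (adjusted p = 0.00198 by edgeR).

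Genes on a list of other thin filament proteins and proteins associated with them fell as well. Of the 17 genes on this list, 12 were lower, where 8.73% of all genes tested were lower, and 1, *Tpm4*, was higher. The median log2 fold change was -0.62, against -0.30 for the members and 0.02 for all genes tested. By the fixed rule the named genes were *Lmod3* and *Lmod2*, the leiomodins that nucleate actin filaments, at -1.08 and -0.72, and *Acta1* and *Actc1*, the skeletal and cardiac alpha-actins, at -0.91 and -0.77. *Acta1*, the most abundant of this list, went from 3938 ± 367 to 2091 ± 314 CPM (SD, n = 3). When 1 library was left out, between 6 and 11 of these genes were lower, 6 without DM1 library 2 and 7 without normal library 1 or 2.

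Genes of the fast, slow, and developmental fiber lists also fell. Of 10 fast fiber genes 6 were lower, with a median of -0.68. *Myh1* and *Myh4*, fast myosin heavy chains, were at -1.78 and -1.42, *Mybpc2*, fast myosin-binding protein C, was at -1.42, and *Actn3*, the fast alpha-actinin, was at -0.68, but *Mylpf*, the fast regulatory light chain and the most abundant, was at -0.16 with an adjusted p of 0.403. All 8 slow fiber genes tested were lower, with a median of -0.91. Among them *Myh7*, the slow and cardiac myosin heavy chain, was at -2.13, *Mybpc1* at -1.20, *Atp2a2*, the slow calcium pump, at -0.997, *Myoz2* at -0.62, and *Casq2*, a calsequestrin and the most abundant, at -0.52. *Myl3*, the ninth, had 0 counts in all 6 libraries. Of 4 developmental genes 3 were lower, *Myh8* at -2.90, *Myh3* at -1.32, and *Myl4* at -0.45. With 1 library left out, between 5 and 7 fast, 6 and 8 slow, and 2 and 4 developmental genes were lower.

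**Figure D4:**
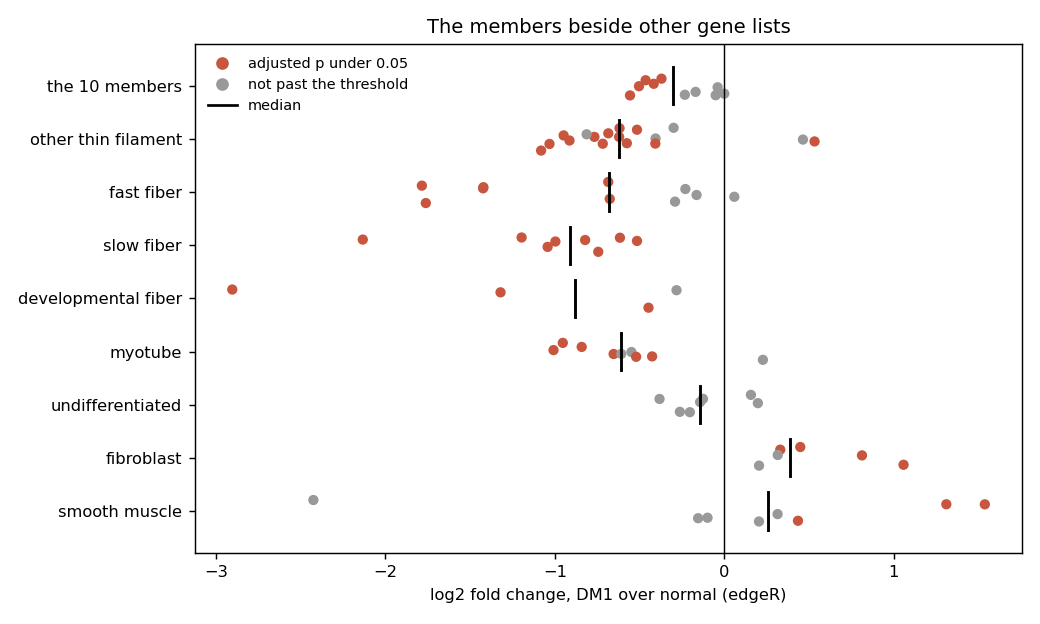
Log2 fold change, DM1 over normal (edgeR), of the 10 members and of the tested genes of 8 other lists, each point a gene, red at an adjusted p under 0.05, with a black line at the median. The member median is -0.30, the medians of the thin filament, fiber, and myotube lists lie between -0.91 and -0.61, and those of the fibroblast and smooth muscle lists are 0.39 and 0.26.

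Markers of myotubes, fibroblasts, and smooth muscle differed in part between the groups, and their part in the changes of the members was not tested. All libraries came from the C2C12 myoblast line, so these list names do not show that fibroblasts or smooth muscle cells were present. Of 9 myotube markers, 6 were lower, with a median of -0.61 and a summed level of 3154 to 3366 CPM in the normal group and 2018 to 2465 in the DM1 group. *Cdh15* was at -0.95, *Ckm*, muscle creatine kinase, at -0.84, *Myog* at -0.65, *Myod1* at -0.52, and *Des*, the most abundant, at -0.43. *Mymx*, the fusion factor myomixer, lay the other way, at 0.23 with an adjusted p of 0.0732 and every DM1 library above every normal one, and it was called higher without DM1 library 3 (adjusted p = 0.0404 by edgeR). Without DM1 library 2, 3 of the 9 were lower. Of 7 markers of undifferentiated or cycling cells, 0 were lower and 0 higher by edgeR, with a median of -0.14 (-0.071 without normal library 3) and summed levels of 707 to 726 and 685 to 791 CPM, and *Top2a*, the most abundant, was at 0.20. *Pax7*, *Myf5*, *Id1*, *Id3*, and *Mki67* were at -0.14, -0.26, -0.20, -0.38, and -0.13, and *Ccnb1* was at 0.16. *Myf5* came closest to the threshold (adjusted p = 0.0635 by edgeR), with every DM1 library below every normal one. DESeq2 called 0 of these 7, 1 had an unadjusted p under 0.05, and 1 was higher by edgeR without DM1 library 3. Of 6 fibroblast markers 4 were higher, *Col1a1* at 1.06, *Lum* at 0.81, *Dcn* at 0.45, and *Col1a2* at 0.33. *Col3a1*, the most abundant, was at 0.20 and did not pass the test (adjusted p = 0.197 by edgeR). The summed level of the 6 was 4023 to 4462 CPM in the normal group and 5040.04 to 5586 in the DM1 group. Without normal library 1, 2, or 3 or DM1 library 2, 2 of the 6 were higher.

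Of 8 smooth muscle markers 3 were higher, *Cnn1* at 1.54, *Tagln* at 1.31, and *Actg2* at 0.43, with summed levels of 3154 to 3419 CPM in the normal group and 3826 to 3995 in the DM1 group, and *Acta2*, the most abundant, was at 0.20 with an adjusted p of 0.134. Between 1 and 4 were higher when 1 library was left out, 1 without normal library 3 or DM1 library 2. *Myh11*, the smooth muscle myosin heavy chain, had 6, 16, and 28 counts in normal libraries 1, 2, and 3 and 0, 0, and 9 in DM1 libraries 1, 2, and 3. With 4 counts taken as 1 fragment, these are few fragments. *Myh11* did not pass the test (adjusted p = 0.246 by edgeR). Without DM1 library 3 it was called lower (adjusted p = 0.0420 by edgeR), on 0 counts in DM1 libraries 1 and 2. *Mylk* and *Lmod1* had log2 fold changes of -0.15 and -0.099 and did not pass the test. Of 9 cardiomyocyte markers 5 were tested and 1, *Myh6*, was lower, at -2.01 (2 without DM1 library 1), with a summed level of 6.51 to 8.92 CPM in the normal group and 4.87 to 7.16 in the DM1 group. *Nppb* lay the other way, at 1.16 (adjusted p = 0.206 by edgeR). *Tnni3*, *Nkx2-5*, and *Pln* were at -0.41, -1.51, and -0.86 and did not pass the test. *Myl7* and *Mybpc3* had 0 counts in all 6 libraries, which allows up to 0.194 CPM in the shallowest library by a floor of 3 fragments of 4 counts each, for counting error only. *Tnnt2* and *Tnnc1*, both also genes of the heart, had at least 911 and 2913 TPM in a library, where the summed level of the cardiac markers was at most 12.8 TPM.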

How the data were processed

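Total RNA of normal (CUG5) and DM1 (CUG200) C2C12 cells was sequenced, 3 libraries per group, with groups and replicate numbers from the labels. The authors trimmed the reads with Trim Galore, aligned them to GRCm38 with HISAT2, and quantified genes with StringTie, with versions and strand setting not given in the sources used here. The deposited table held counts per gene without normalization. The tables deposited for each library held coverage (signal), FPKM, and TPM per gene, of which the TPM values were used for levels and shares and the coverage for the unit of a count. A count was 75 aligned bases for 98.6% to 98.8% of the genes with a single transcript and at least 20 counts, within a tolerance of 1 count, and 4 counts were taken as 1 fragment, the commonest value above 0 in every library. Overlapping genes can share counts, and TPM depends on the transcripts StringTie assigned.

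The counts were filtered with filterByExpr (minimum count 10), scaled by TMM (factors 0.940 to 1.05), and compared with edgeR 4.0.16 (quasi-likelihood, robust, no covariate) in R 4.3.3 with Benjamini-Hochberg adjustment over 19005 genes. The common biological coefficient of variation was 0.221. Libraries of a group differed by more than sampling noise, with chi-square per degree of freedom of 11.9 to 45.2 on counts divided by 4. Shares and ratios were compared with exact permutation tests (scipy 1.17.1). The alternatives were DESeq2 1.42.0, its size factors, library sizes alone, other filters, the replicate number as a block, limma 3.58.1 on log2 TPM with pseudocounts of 1 and 0.1, summed counts of overlapping genes, counts divided by 4, families with *Tnni3* and *Tpm4*, each library left out, and library sizes without mitochondrial genes, the last chosen after seeing the data. The tests were tested on simulated data. The members and lists were chosen with earlier results of these data known. All members were named, with up to 4 called genes per list and direction with the smallest p, the most abundant gene of a marker list, *Tnni3*, *Tpm4*, and the gene most like each member. *Ube2c*, *Tpm3-rs7*, *Myl3*, *Myl7*, *Mybpc3*, *Mymx*, *Myh11*, *Mylk*, and *Lmod1* fall outside this rule and were named after their values were seen.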

Additional observations from a re-analysis of the deposited data

How the results depend on the processing

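With 3 libraries per group the number of calls depended on single libraries. Leaving out 1 library gave between 1 and 6 lower members, between 485 and 2111 lower genes, and between 543 and 1678 higher genes. Over the members' log2 fold changes, such fits ranged from -0.12 to -0.0029 for *Tnni2*, from -0.11 to 0.011 for *Tnnc1*, and from -0.011 to 0.019 for *Tpm1*. With limma on log2(TPM + 1) without a filter, which adjusts over 30211 genes, 0 members, 76 lower genes, and 51 higher genes were called. With the filter, limma called 498 higher genes, and on log2(TPM + 0.1) it called 1067 lower and 480 higher genes, and both gave 5 lower members. The sign of *Tpm1*, whose value is near 0, changed to 0.0030 with DESeq2, 0.0021 with its size factors, 0.0061 with at least 10 counts in every library, 0.0056 with counts summed over overlapping genes, and 0.0093 with counts divided by 4. The cause of these shifts was not tested. With *Tnni3* and *Tpm4* counted in the families the shares of *Tpm1* and *Tpm3* changed by -1.40 and -1.48 percentage points, by the construction of the share. The other shares and ratios kept their direction in all alternatives run, and 0 members were past the cutoffs of the study or higher in any of them. Whether the replicate numbers pair the libraries could not be decided, since 3 libraries per group are too few. The correlations were 0.0675, 0.0222, and 0.0263 for same-numbered libraries. For libraries with unlike numbers they ran from -0.0722 to 0.0451, the highest for normal library 3 with DM1 library 2. With the replicate block 5 members and 1497 genes were lower.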
